A study of Mus musculus with 12 samples.

Results

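The comparison described here is between mouse osteoclast precursors that received RANKL together with BMS309403, a small molecule that inhibits FABP4, and precursors that received RANKL without it. It compares 6 of the 12 libraries of the study, 3 with BMS309403 and 3 without. The comparison covers the 12168 of 16570 genes that passed a filter on low counts. Bone marrow mononuclear cells of C57BL/6J mice aged 6 to 8 weeks had been kept for 2 days in M-CSF at 50 ng/mL to become macrophages. They were then cultured for another 2 days in M-CSF at 50 ng/mL with RANKL at 100 ng/mL and 1 µM BMS309403, or with the same M-CSF and RANKL and no inhibitor. The other 6 libraries comprised 3 with M-CSF, RANKL and 1 µM RHC80267, a diacylglycerol lipase inhibitor, and 3 with M-CSF alone. They entered the same fit and so shaped the filter, the scaling and the spread behind the p-values. Their levels serve as context. All 4 groups thus share the M-CSF, and no vehicle is named for the groups without inhibitor. The labels do not say whether the 3 libraries of a group are separate animals or cultures, so p-values reflect no more than the spread among these libraries, which may be technical.

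RANKL binds its receptor RANK on macrophages and, through TRAF6, NF-kB and c-Fos, raises NFATc1, the transcription factor that turns on the genes for cell fusion, acid secretion and bone matrix breakdown. Type I interferon made in the same cells acts through its receptor, JAK kinases and STAT factors with IRF9 on interferon-stimulated genes, and is known as a brake on osteoclast formation. FABP4 is a cytosolic carrier of fatty acids, made by adipocytes and macrophages, and BMS309403 occupies its lipid pocket.

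The cells carried the RNA of macrophages on the way to osteoclasts in both groups. The 8 macrophage markers summed to 28300 to 29800 CPM (counts scaled to library size by the TMM method) with BMS309403 and 25500 to 27200 CPM with RANKL alone. The 10 osteoclast markers summed to 6900 to 7780 CPM with BMS309403 and 8440 to 10500 CPM with RANKL alone, against 175 to 200 CPM with M-CSF alone. In bulk RNA, fewer osteoclast precursors and less osteoclast RNA per cell cannot be told apart. The 11 neutrophil markers summed to 1600 to 1730 CPM with BMS309403 and 1570 to 1780 CPM with RANKL alone, and none of the 11 was called. Ccr2, the only marker called among 5 of monocytes, was called lower with all libraries but not in 1 of the 6 fits that each leave out 1 library. The 8 markers of T and NK cells summed to 116 to 127 CPM with BMS309403 and 77.6 to 98.0 CPM with RANKL alone, nearly all of it Cd4, which rose (0.46 ± 0.06, adjusted p = 0.000286). Of the others, Cd3d, Cd3e and Cd3g did not pass the filter. Markers of B cells summed to at most 11.9 CPM and of erythroid cells to at most 1.4 CPM in these 6 libraries. The adipocyte value rests on 1 of 4 markers, Adipoq, at no more than 0.0557 CPM, and the other 3 were not analysed here.

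The 6 libraries held 17885762 to 18344989 expected counts each. In a principal component analysis of the 6, the first component held 32.0% of the variance and set the groups apart, with BMS309403 libraries 1, 2 and 3 at −7.68, −13.1 and −8.18 and RANKL libraries 1, 2 and 3 at 16.6, 7.27 and 5.05. RANKL library 1 stood farthest from the BMS309403 libraries, and its removal costs the most calls. Replicates 1, 2 and 3 of a group are named below by these numbers, and values for a group are given in that order.

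The changes with BMS309403 were few and small beside those of the study's other comparisons. With all libraries kept, 425 genes were called higher (3.49% of those tested) and 455 lower (3.74%), at an adjusted p below 0.05. In the authors' deposited table, 309 genes were higher and 209 lower at their q-value below 0.05, and 506 genes were called the same way in both, which is 57.5% of the calls here and 97.7% of theirs. The median size of a called change was 0.24 on the log2 scale, which is 1.18-fold, and 2 genes called higher and 6 called lower differed by more than 2-fold. For comparison, RHC80267 against the same RANKL libraries gave 26.9% of genes called higher and 23.0% lower, and RANKL against M-CSF gave 31.4% and 29.8%.

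Many of these calls depended on single libraries. Leaving out RANKL library 1 left 152 genes called higher and 111 lower, and leaving out BMS309403 library 2 left 171 and 145. Leaving out any of the other 4 libraries left 325 to 473 genes called higher and 287 to 538 lower. Across the genes still called without it, RANKL library 1 lay at −0.03 (genes higher with BMS309403) and 0.16 (genes lower) from the mean of the other RANKL libraries on the log2 scale, where the BMS309403 mean lay at 0.34 and −0.32. For the genes called without BMS309403 library 2, that library lay at 0.36 and −0.39 from the RANKL mean, beside 0.31 and −0.39 for the other BMS309403 libraries. The other libraries left out lay between the groups. BMS309403 library 1 lay at 0.20 and −0.27 where the other BMS309403 libraries lay at 0.29 and −0.36, and BMS309403 library 3 at 0.22 and −0.23 where the others lay at 0.28 and −0.35. RANKL library 2 lay at 0.07 and −0.09, beside a BMS309403 mean of 0.30 and −0.37. RANKL library 3 lay at 0.09 and −0.16, beside a BMS309403 mean of 0.28 and −0.34.

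**Figure D1:**
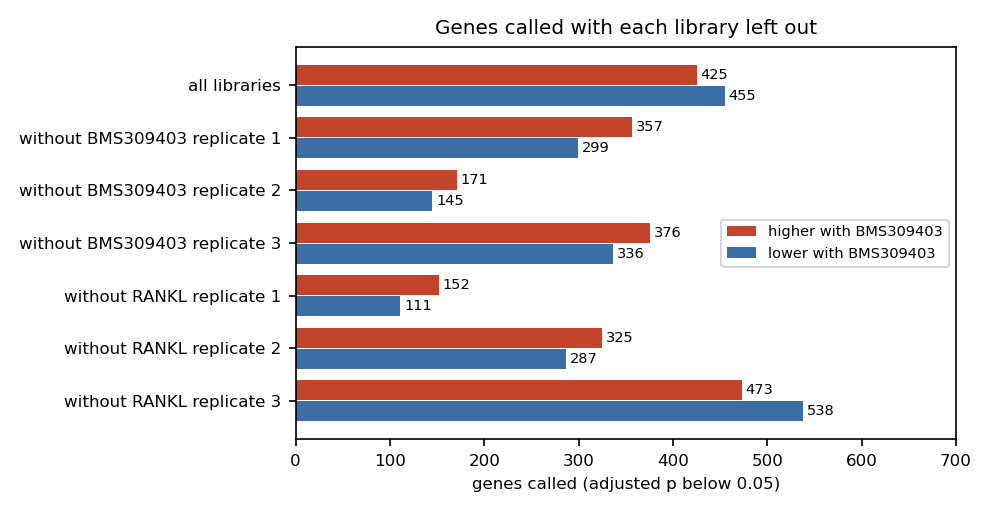
Number of genes called higher (red) and lower (blue) with BMS309403 than with RANKL alone, at an adjusted p below 0.05, in the fit with all libraries and in the 6 fits that each leave out a BMS309403 or a RANKL library. The counts are smallest without RANKL library 1 (152 and 111) and largest without RANKL library 3 (473 and 538).

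In what follows, "rose" and "fell" are used only of genes that were called with all libraries and called in the same direction in each of the 6 fits that leave out 1 library. By that rule 132 genes rose (1.08% of those tested) and 100 fell (0.822%). Another 293 genes (2.41%) were called higher and 355 (2.92%) lower with all libraries but lost the call in at least 1 of the 6 fits. Such genes are described below as called without holding, and they kept the call in a median of 3 of the 6 fits. The genes that rose did so by a median of 1.23-fold and those that fell by a median of 1.3-fold, while the median log2 change of all genes tested was −0.01. In all 232 genes the values of the 2 groups did not overlap, which was also so of 11.2% of all genes tested in the higher direction and 12% in the lower. Only 8 of the genes that rose and 5 of those that fell changed by more than 1.5-fold, and 1, Spry3, by more than 2-fold. Spry3, which encodes an inhibitor of growth factor signalling, was a low-level gene, at 1.53, 1.28 and 1.73 CPM with BMS309403 and 0.656, 0.663 and 0.616 CPM with RANKL alone.

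**Figure D2:**
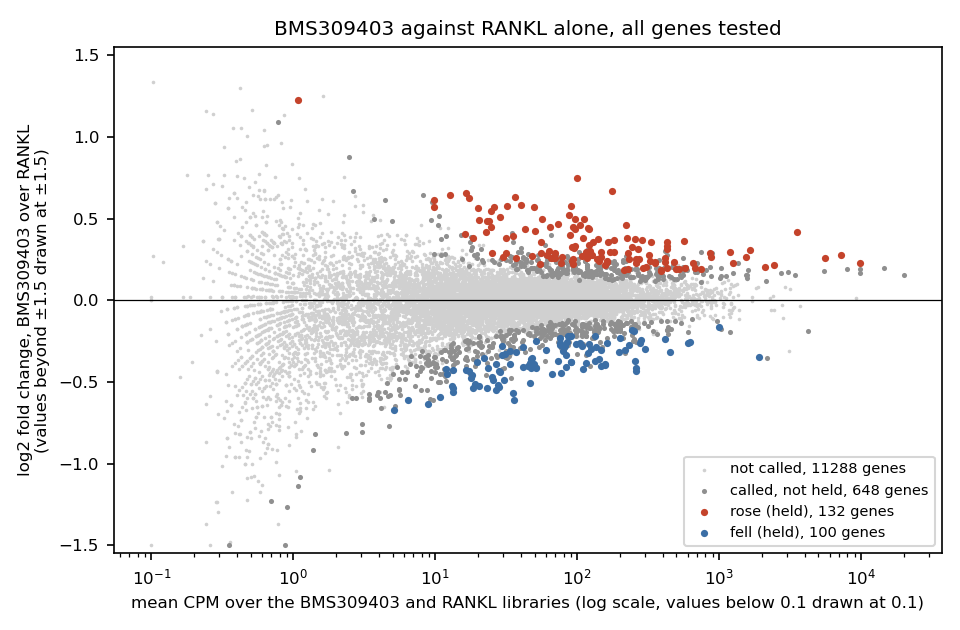
Log2 fold change of BMS309403 over RANKL alone for each gene tested, against its mean CPM over the 6 libraries on a log axis. Apart from Spry3 at 1.22, the 132 genes that rose (red) and the 100 that fell (blue) lie between −0.67 and 0.75. The 648 dark grey genes were called without holding in every fit, and the light grey genes were not called.

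The gene for the inhibitor's target did not change detectably. Fabp4 stood at 45.2, 45.1 and 34.3 CPM with BMS309403 and at 29.5, 36.8 and 43.0 CPM with RANKL alone. The groups overlapped, and the log2 difference was 0.19 ± 0.12 (SE, adjusted p = 0.395). Fabp5, which encodes the closely related epidermal fatty acid binding protein, was at 1010, 1050 and 896 CPM with BMS309403 and at 726, 794 and 900 CPM with RANKL alone. Its groups overlapped as well, since BMS309403 library 3 lay just under RANKL library 3. It was called with all libraries (0.29 ± 0.07, adjusted p = 0.0136) but not without BMS309403 library 1 (adjusted p = 0.0501), BMS309403 library 2 (0.0995) or RANKL library 1 (0.116), so it is not counted as risen. Per length, Fabp5 was the more abundant RNA, with 1520 ± 114 FPKM against 113 ± 16.5 FPKM for Fabp4 in the BMS309403 libraries (SD, n = 3). With RANKL alone, Fabp5 had 1290 ± 111 FPKM and Fabp4 103 ± 16.1 FPKM (SD, n = 3). Fabp3 and Fabp7 lay under 5 CPM in all 6 libraries and were not called, and Fabp1 and Fabp6 were at or near 0. Pparg, a nuclear receptor for fatty acids that acts on the Fabp4 gene, was at 17.0, 21.3 and 18.7 CPM with BMS309403 and 18.5, 19.9 and 18 CPM with RANKL alone.

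The clearest increase was in interferon-stimulated genes. Of the 12 genes that rose most among those with at least 5 CPM, 11 belonged to the interferon gene lists and the other, Cxcl10, encodes a chemokine that interferon induces. Across the lists of sensors, signalling proteins and effectors, 44 of 105 genes tested rose, where 1.08% of all genes tested did. No gene of these lists fell, where only 0.822% of all genes tested did. These lists and all others below were chosen with earlier results of these data known, so a list's count describes it and is no independent support for its direction.

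Among the sensors of foreign or misplaced nucleic acid and their adaptors, 5 of 10 genes tested rose and none fell, with a median log2 change of 0.22 beside −0.01 for all genes. Zbp1, a receptor for left-handed double helices, stood at 33.8, 43.5 and 36.9 CPM with BMS309403 and at 27.2, 26.2 and 22.9 CPM with RANKL alone, with all BMS309403 libraries above all RANKL libraries (0.58 ± 0.09, adjusted p = 0.000664). Ddx58, the cytosolic RNA sensor RIG-I, was at 123, 149 and 137 CPM with BMS309403 and 107, 118 and 107 CPM with RANKL alone (0.30 ± 0.06, adjusted p = 0.00361). Its relatives Ifih1 (MDA5) and Dhx58 (LGP2) rose as well, by 0.30 and 0.42 on the log2 scale, as did the endosomal RNA receptor Tlr7, by 0.20. The DNA sensor gene Cgas (0.08) and the adaptor gene Mavs (−0.02) were not called. The only interferon gene in the table that was on the list, Ifnb1, did not pass the filter and reached at most 0.0568 CPM in these libraries.

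Of 13 genes for interferon receptors, JAK kinases, STATs and their inhibitors, 3 rose and none fell. Stat2, a transcription factor of the type I response, was at 114, 133 and 125 CPM with BMS309403 and 95.6, 100 and 88.9 CPM with RANKL alone (0.38 ± 0.06, adjusted p = 0.000791). Usp18, which encodes the enzyme that removes ISG15 and dampens the type I receptor, rose by 0.45. The receptor chain genes Ifnar1 (0.05), Ifnar2 (0.04), Ifngr1 (0.09) and Ifngr2 (0.09) were not called. Calls were thus made for the transcription factors of the pathway and for none of its receptor chains.

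Among 8 interferon regulatory factor genes, Irf7 and Irf1 rose and 2 more were called higher without holding. Irf7, the factor that amplifies type I interferon production, stood at 121, 145 and 123 CPM with BMS309403 and 94.1, 96.9 and 85.3 CPM with RANKL alone (0.49 ± 0.08, adjusted p = 0.000594). Irf1 was at 79.7, 84.5 and 91.4 CPM with BMS309403 and 70.9, 69.2 and 72.3 CPM with RANKL alone (0.27 ± 0.05, adjusted p = 0.00168). Neither gene overlapped between the groups. Irf9, the DNA-binding partner of STAT2, had a log2 difference of 0.23 and lost its call without BMS309403 library 2 (adjusted p = 0.0807) and without RANKL library 1 (0.06). Irf8, a repressor of osteoclast formation, had 0.16 and kept its call in only 2 of the 6 fits.

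The antiviral effectors made up the largest interferon list, and 15 of its 27 genes tested rose, 6 were called higher without holding, and none was called lower. Its median log2 change was 0.30, and ranged from 0.27 to 0.34 when single libraries were left out. Ifit3, a protein that blocks viral RNA, had the largest log2 change of the list. It was at 118, 134 and 122 CPM with BMS309403 and 75.3, 82.4 and 65.4 CPM with RANKL alone (0.75 ± 0.10, adjusted p = 0.000285). All of its counts were fractional and it has a near copy, Ifit3b, so the split of reads between these 2 genes is uncertain. Ifit2 was at 201, 240 and 207 CPM with BMS309403 and 144, 147 and 117 CPM with RANKL alone (0.67 ± 0.10, adjusted p = 0.000434). Ifit1, Ifit3b and Ifit1bl1 rose by 0.57, 0.57 and 0.48.

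Rsad2 encodes viperin, a radical enzyme that makes an antiviral nucleotide. It was at 101, 117 and 105 CPM with BMS309403 and 73.7, 77.2 and 65.4 CPM with RANKL alone (0.58 ± 0.08, adjusted p = 0.000286). Its neighbour Cmpk2, which supplies the nucleotide, was at 61.9, 68.9 and 65.9 CPM with BMS309403 and 47.0, 49.2 and 43.4 CPM with RANKL alone (0.50 ± 0.08, adjusted p = 0.000544). BMS309403 library 2 was the highest of the 6 for Ifit2, Ifit3, Rsad2 and Cmpk2 alike. Bst2, the tether of budding virus, and Ifitm3, which blocks viral entry, rose by 0.32 and 0.24. Ifitm1, Ifitm2 and Ifitm6 were not called.

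Isg15, a ubiquitin-like protein joined to other proteins after interferon, was at 42.7, 48.3 and 41.7 CPM with BMS309403 and 30.2, 28.6 and 26.8 CPM with RANKL alone. All BMS309403 libraries lay above all RANKL libraries, and the log2 difference was 0.63 ± 0.08 (adjusted p = 0.000184). Of the 6 genes of ISG15 conjugation, Isg15 and Usp18 rose, Uba7 was called without holding, and Herc6, Ube2l6 and Trim25 were not called.

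The promoters of these genes are shown because interferon acts on them through a short sequence bound by the complex of STAT factors with IRF9 and by interferon regulatory factors. The 250 bases before the start of Isg15, Ifit3 and Rsad2 are given 5′ to 3′ along the gene, from the RefSeq annotation of GRCm38.p6. Capitals mark the core of the response element, GAAA followed by any 2 bases and a further GAAA, on either strand, where overlapping matches run together.
Isg15, chr4:156200819-156201068, minus strand: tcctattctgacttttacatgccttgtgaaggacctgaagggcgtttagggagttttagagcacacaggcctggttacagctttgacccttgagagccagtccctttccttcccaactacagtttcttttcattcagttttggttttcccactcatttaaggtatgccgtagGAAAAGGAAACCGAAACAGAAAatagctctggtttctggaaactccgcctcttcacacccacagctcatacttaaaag
Ifit3, chr19:34583279-34583528, plus strand: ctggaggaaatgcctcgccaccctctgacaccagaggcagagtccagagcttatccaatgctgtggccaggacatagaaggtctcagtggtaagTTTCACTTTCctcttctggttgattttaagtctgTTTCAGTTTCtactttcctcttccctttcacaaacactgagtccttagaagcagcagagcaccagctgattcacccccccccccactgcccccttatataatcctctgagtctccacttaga
Rsad2, chr12:26456453-26456702, minus strand: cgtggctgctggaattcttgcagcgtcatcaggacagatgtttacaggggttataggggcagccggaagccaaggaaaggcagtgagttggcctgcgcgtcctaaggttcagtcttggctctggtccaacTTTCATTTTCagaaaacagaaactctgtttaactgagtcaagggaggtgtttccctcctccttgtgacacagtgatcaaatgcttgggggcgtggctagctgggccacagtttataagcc
The Isg15 window held 3 overlapping matches, which begin 78, 72 and 66 bases before the start. That of Ifit3 held 2, at 156 and 122 bases, and that of Rsad2 held 1, at 120 bases. In windows of 300 bases (250 before to 50 after the start), the core was found in 69% of the 42 promoters of interferon-list genes that rose and in 45% of the 100 promoters of all interferon-list genes. It was found in 16.3% of promoters of the other genes that rose, 3.77% of those of genes that fell, 3.26% of those of all genes tested, and 3.44% of all promoters in the table. Gene IDs matched 35 of the 44 interferon-list genes that rose. The STAT site TTCNNNGAA, searched on both strands, was in 19% of the promoters of interferon-list genes that rose and in 6.78% of those of all genes tested. A match is a description of the sequence and not evidence of binding.

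The oligoadenylate synthetases make the second messenger that activates RNase L, which cuts RNA in infected cells. Of 8 genes of this list tested, 4 rose and 3 more were called higher without holding, with a median of 0.36. Oasl2 was at 107, 126 and 107 CPM with BMS309403 and 76.5, 89.8 and 74.4 CPM with RANKL alone (0.49 ± 0.09, adjusted p = 0.0017). Oas3, Oas1g and Oas1a also rose, by 0.45, 0.49 and 0.33. The Oas1 genes are near copies of each other, so reads may have been divided between them.

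Of 15 guanylate-binding proteins and immunity-related GTPases tested, proteins that coat and break the vacuoles of intracellular microbes, 5 rose and 6 were called higher without holding (median 0.39). Irgm1 was at 125, 155 and 134 CPM with BMS309403 and 100, 109 and 96.6 CPM with RANKL alone (0.44 ± 0.07, adjusted p = 0.000398). Iigp1, the highest of the family by fold change, was at 18.9, 22.2 and 19.5 CPM with BMS309403 and 14.0, 14.4 and 10.2 CPM with RANKL alone (0.65 ± 0.13, adjusted p = 0.00361). The 5 that rose were all of the immunity-related GTPase branch (Iigp1, Tgtp2, Irgm1, Ifi47 and Igtp), while Irgm2 and the guanylate-binding genes Gbp2, Gbp3, Gbp5, Gbp6 and Gbp9 were called without holding.

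The Ifi200 family, DNA-binding proteins of the cytosol and nucleus, had the highest median of the interferon lists, at 0.45, with 8 of 12 genes risen. Ifi204 was at 240, 286 and 247 CPM with BMS309403 and 191, 198 and 172 CPM with RANKL alone (0.46 ± 0.07, adjusted p = 0.000622). Ifi211 was at 97.7, 117 and 95.4 CPM with BMS309403 and 71.8, 77.9 and 66.3 CPM with RANKL alone (0.52 ± 0.08, adjusted p = 0.000462). Ifi206 and Ifi213 rose by 0.64 and 0.63 from lower levels. Aim2, the inflammasome sensor of the family, was not called (0.08), and neither was Ifi202b, which lay under 1 CPM. The genes of this family lie together and resemble each other, so counts of single members are uncertain. Of 7 Schlafen genes, Slfn8 rose by 0.33 and Slfn2 and Slfn5 were called without holding.

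**Figure D3:**
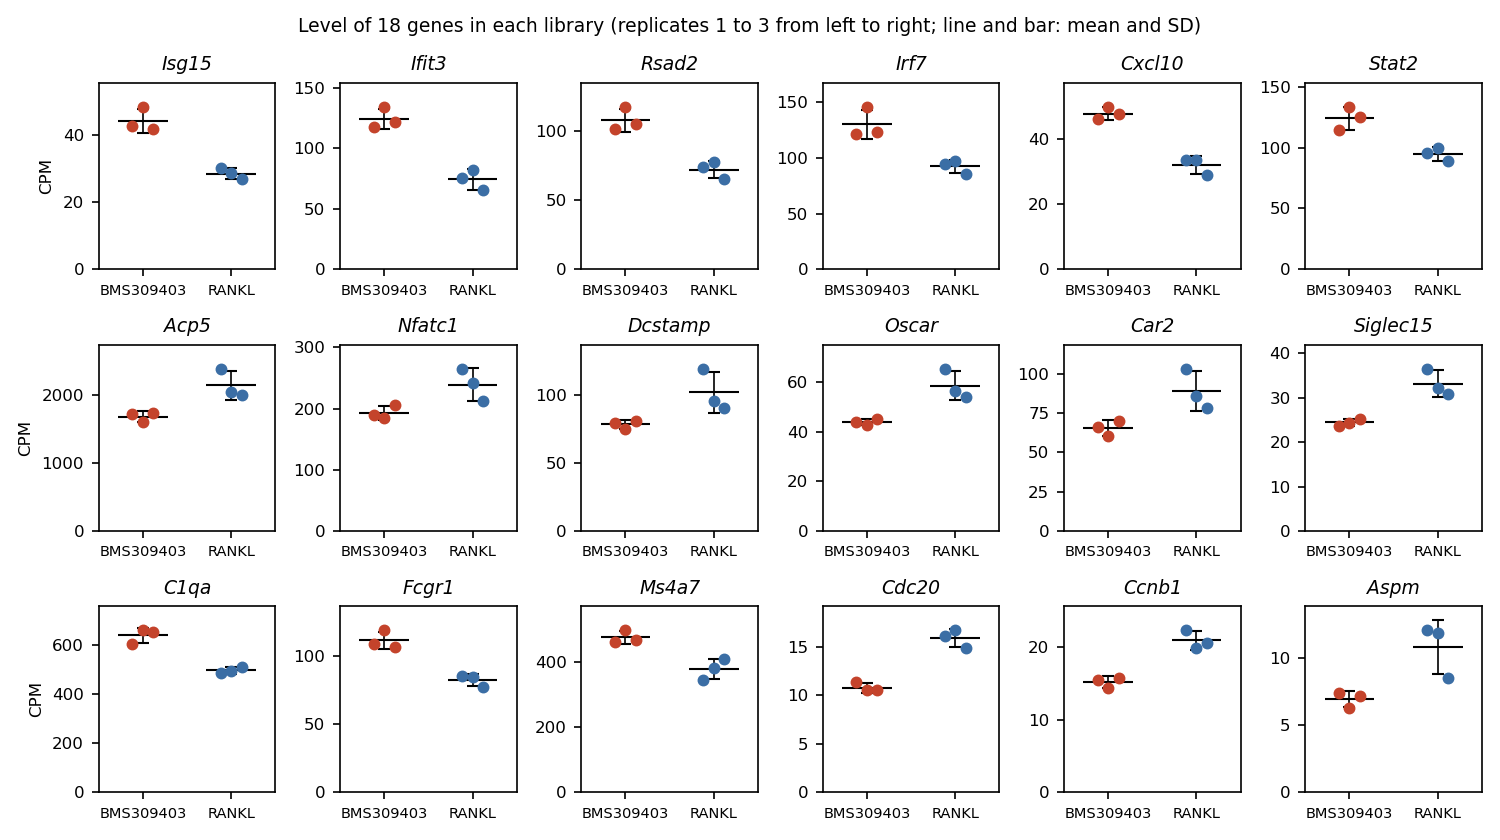
CPM of 18 genes in each BMS309403 (red) and RANKL (blue) library, replicates 1 to 3 from left to right, on axes that start at 0. Horizontal lines are means and bars are SD (n = 3). The upper row holds interferon genes and Cxcl10, higher with BMS309403, and the middle row osteoclast genes, lower with it. The lower row holds the macrophage genes C1qa, Fcgr1 and Ms4a7, higher, and the mitosis genes Cdc20, Ccnb1 and Aspm, lower. No gene shown overlaps between the groups.

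Antigen presentation and chemokine lists had medians of 0.13 (MHC class I), 0.15 (class II and co-stimulation) and 0.18 (chemokines). Of 15 MHC class I genes, B2m, H2-D1 and Tapbp rose, by 0.26, 0.20 and 0.18, and 3 more were called higher without holding. B2m, the invariant light chain, was at 1630, 1810 and 1630 CPM with BMS309403 and 1420, 1430 and 1360 CPM with RANKL alone. Of 12 class II and co-stimulation genes, Cd86 rose, with 97.7, 107 and 95.0 CPM with BMS309403 and 82.4, 87.3 and 83.7 CPM with RANKL alone (0.24 ± 0.05, adjusted p = 0.00229), and 4 were called higher without holding. Of 15 chemokine genes, 1 rose. Cxcl10 was at 46.0, 49.7 and 47.7 CPM with BMS309403 and 33.6, 33.4 and 28.9 CPM with RANKL alone (0.58 ± 0.07, adjusted p = 0.000184). The NF-kB chemokine genes Ccl2 (0.10) and Cxcl2 (0.14) were not called.

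Several families of macrophage surface and secreted proteins were higher with BMS309403. Of 6 Fc receptor genes, which let macrophages take up antibody-coated particles, 2 rose and the other 4 were called higher without holding (median 0.27). Fcgr1, the high-affinity receptor, was at 109, 119 and 107 CPM with BMS309403 and 85.3, 84.9 and 77.4 CPM with RANKL alone (0.44 ± 0.05, adjusted p = 8.75e-05). Fcgr3 was at 953, 975 and 932 CPM with BMS309403 and 742, 778 and 825 CPM with RANKL alone (0.29 ± 0.04, adjusted p = 0.000358). All BMS309403 values lay above all RANKL values for both.

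Of 14 complement genes tested, 5 rose and none was called lower. The 3 chains of C1q, which starts the classical pathway, moved together. C1qa was at 606, 661 and 656 CPM with BMS309403 and 485, 496 and 513 CPM with RANKL alone (0.36 ± 0.05, adjusted p = 0.000285). C1qb was at 1830, 1750 and 1860 CPM with BMS309403 and 1390, 1440 and 1560 CPM with RANKL alone (0.31 ± 0.04, adjusted p = 0.000302). C1qc rose by 0.26. Cfp, properdin, and C3ar1, the receptor for C3a, rose by 0.23 and 0.20, while C3 itself (0.18) was not called.

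The MS4A genes encode membrane-spanning proteins, several of them found on macrophages. Of 9 tested, 5 rose and 2 were called higher without holding (median 0.29). Ms4a7 was at 463, 499 and 470 CPM with BMS309403 and 346, 384 and 410 CPM with RANKL alone (0.33 ± 0.05, adjusted p = 0.000357). Ms4a4a was at 197, 215 and 205 CPM with BMS309403 and 145, 164 and 169 CPM with RANKL alone (0.37 ± 0.05, adjusted p = 0.00033). Ms4a6b, Ms4a6c and Ms4a6d rose by 0.36, 0.31 and 0.29. The low-level genes Ms4a4b and Ms4a8a were not called.

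Among general identity genes of macrophages, the median log2 change was 0.13. Csf1r, the M-CSF receptor, was at 2830, 3000 and 3080 CPM with BMS309403 and 2820, 2820 and 2790 CPM with RANKL alone (0.08 ± 0.04, adjusted p = 0.225). Of 22 identity genes tested, 5 rose (Fcgr1, Ms4a7, Fcgr3, Aif1 and Apoe), 4 were called higher without holding, and Ccr2, the receptor of monocyte recruitment, was called lower without holding. Apoe, the lipid carrier apolipoprotein E, was at 5940, 6200 and 6130 CPM with BMS309403 and 4850, 5010 and 5390 CPM with RANKL alone (0.26 ± 0.05, adjusted p = 0.00181). Gas6, which bridges dying cells to their receptors on phagocytes, was at 371, 381 and 365 CPM with BMS309403 and 256, 299 and 319 CPM with RANKL alone (0.36 ± 0.06, adjusted p = 0.000684). Gas6 was the only 1 of 16 scavenger and efferocytosis genes that rose, with 3 more called higher without holding. RANKL library 1 was the lowest of the 6 for Fcgr3, C1qa, C1qb, Ms4a7, Ms4a4a, Apoe and Gas6.

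Lysosomal genes lay slightly higher nearly throughout. Of 32 tested, 31 had a log2 change above 0, 3 rose, 10 were called higher without holding, and the median was 0.11. Lgmn, the protease legumain, was at 1280, 1340 and 1320 CPM with BMS309403 and 994, 1080 and 1130 CPM with RANKL alone (0.30 ± 0.04, adjusted p = 0.000379). Ctsb, cathepsin B, was at 10600, 10600 and 10400 CPM with BMS309403 and 8190, 9240 and 9620 CPM with RANKL alone (0.23 ± 0.05, adjusted p = 0.00586). The membrane protein gene Lamp1 rose by 0.22. Without RANKL library 1, and likewise without BMS309403 library 2, only these 3 of the 13 were called.

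Osteoclast genes went the other way. Of the 10 osteoclast markers, 5 fell, 3 were called lower without holding, 2 were not called, and all 10 had a log2 change below 0 (median −0.32). The changes were small beside the induction itself. Acp5, the tartrate-resistant acid phosphatase that marks osteoclasts, was at 1720, 1600 and 1740 CPM with BMS309403 and 2390, 2050 and 2000 CPM with RANKL alone (−0.35 ± 0.05, adjusted p = 0.000547). With M-CSF alone it was at 5.77 ± 0.509 CPM (SD, n = 3). RANKL library 1 was the highest of the RANKL libraries for all 10 markers. Without it 5 of the 10 were called lower and the median was −0.24, and without BMS309403 library 2 also 5 were called, with a median of −0.27.

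The receptor and its adaptors did not change detectably. Of 15 genes from RANK to the IkB kinases, none rose or fell, and Ikbkg (NEMO) was called lower without holding. Tnfrsf11a, which encodes RANK, was at 149, 162 and 164 CPM with BMS309403 and 184, 172 and 160 CPM with RANKL alone, with overlap (−0.12 ± 0.05, adjusted p = 0.143). Of 24 NF-kB inflammatory genes, Traf1, an adaptor that NF-kB induces, fell. It was at 53.5, 51.0 and 56.1 CPM with BMS309403 and 70.3, 64.5 and 63.9 CPM with RANKL alone (−0.31 ± 0.05, adjusted p = 0.000554). Tnfaip3 (A20) and Nfkbia, 2 inhibitors in the same pathway, were called lower without holding, at −0.28 and −0.15.

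Of 17 osteoclast transcription factor genes tested, 5 fell, 3 were called lower without holding, and none was called higher. Nfatc1 was at 190, 184 and 206 CPM with BMS309403 and 265, 241 and 212 CPM with RANKL alone (−0.31 ± 0.06, adjusted p = 0.00182). The highest BMS309403 library came close to RANKL library 3 without reaching it. Fos, the AP-1 subunit that acts on Nfatc1, was at 68.6, 67.3 and 70.2 CPM with BMS309403 and 87.1, 84.0 and 76.5 CPM with RANKL alone (−0.26 ± 0.05, adjusted p = 0.00389). Fosl2, a Fos relative, was at 218, 206 and 235 CPM with BMS309403 and 335, 289 and 266 CPM with RANKL alone (−0.43 ± 0.06, adjusted p = 0.000354). Jdp2, an AP-1 factor needed for osteoclast formation, and Ppargc1b, a coactivator of mitochondrial genes in osteoclasts, fell by 0.42 and 0.41 on the log2 scale. Spi1 (0.00), Mitf (−0.01) and Tfe3 (0.09) were not called. Of 12 genes for repressors of osteoclast formation, Lilrb4a rose by 0.19 and Irf8 was called without holding. Bcl6 (0.05) and Id2 (0.04) were not called.

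Of 13 ITAM co-receptor and kinase genes, 1 fell. Oscar, the osteoclast collagen receptor that signals through the Fc receptor gamma chain, was at 43.9, 42.9 and 45.0 CPM with BMS309403 and 65.4, 56.5 and 54.1 CPM with RANKL alone (−0.42 ± 0.07, adjusted p = 0.00124). Trem2 and Fcer1g were called higher, at 0.15 each, without holding, and the kinase genes Syk (0.02), Btk (−0.01) and Lyn (0.03) were not called.

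Of 18 genes of precursor fusion tested, 6 fell and 3 were called lower without holding (median −0.27). Dcstamp, the membrane protein that fusion requires, was at 79.5, 74.7 and 80.4 CPM with BMS309403 and 119, 95.6 and 90.6 CPM with RANKL alone (−0.38 ± 0.07, adjusted p = 0.00176). Siglec15, a sialic acid receptor of osteoclasts, was at 23.6, 24.4 and 25.3 CPM with BMS309403 and 36.5, 32.2 and 30.8 CPM with RANKL alone (−0.44 ± 0.07, adjusted p = 0.000971). Dock5, an activator of the GTPase Rac, and the integrin chain Itgav fell by 0.39 and 0.30. Atp6v0d2, a V-ATPase subunit also needed for fusion, was at 544, 538 and 567 CPM with BMS309403 and 737, 638 and 608 CPM with RANKL alone (−0.27 ± 0.06, adjusted p = 0.00527). Ocstamp, the partner of Dcstamp, had −0.28 and lost its call without BMS309403 library 2 (adjusted p = 0.0765) or RANKL library 1 (0.0996). The fusion-related surface genes Cd44 (−0.02), Cd47 (0.10) and Sirpa (−0.06) were not called.

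Of 22 resorption genes tested, 4 fell and 6 were called lower without holding (median −0.26). Besides Acp5 these were Car2, Src and Ckb. Car2, the carbonic anhydrase that supplies protons, was at 65.8, 60.1 and 70.1 CPM with BMS309403 and 103, 85.6 and 78.0 CPM with RANKL alone (−0.44 ± 0.08, adjusted p = 0.0017). Src, the kinase needed for the ruffled border, was at 106, 98.8 and 115 CPM with BMS309403 and 147, 128 and 125 CPM with RANKL alone (−0.32 ± 0.06, adjusted p = 0.00115). Ctsk, cathepsin K, the main protease of bone collagen, was at 1980, 1760 and 1950 CPM with BMS309403 and 2760, 2290 and 2220 CPM with RANKL alone. Its groups did not overlap, and its difference of −0.35 ± 0.08 was called with all libraries (adjusted p = 0.00962). It was not called without BMS309403 library 2 (adjusted p = 0.0856) or without RANKL library 1 (−0.25, adjusted p = 0.0929). Mmp9, matrix metalloproteinase 9, was at 2700, 2540 and 3010 CPM with BMS309403 and 3910, 3280 and 3060 CPM with RANKL alone and was not called (−0.31 ± 0.10, adjusted p = 0.0682).

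The acid pump and the actin machinery had 3 and 2 genes called lower, of 18 tested in each list, where 3.74% of all genes tested were called lower. Of 18 V-ATPase subunit genes, Atp6v0d2 fell and 2 were called lower without holding, and Tcirg1, the a3 subunit of the osteoclast pump, was not called (−0.06). In that list 13 genes had a log2 change below 0 and 5 above, with a median of −0.07. Of 18 podosome and actin ring genes tested, none rose or fell, and Vcl and Cttn were called lower without holding. The median of the podosome list, −0.01, was that of all genes.

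Genes of mitosis had the lowest median of the lists other than cell type markers, −0.37, which ranged from −0.41 to −0.31 when single libraries were left out. Of 36 tested, 9 fell, 13 were called lower without holding, and none was called higher. Cdc20, the activator of the anaphase-promoting complex, was at 11.4, 10.5 and 10.5 CPM with BMS309403 and 16.1, 16.7 and 14.9 CPM with RANKL alone (−0.56 ± 0.08, adjusted p = 0.000286). Ccnb1, cyclin B1 of the mitotic kinase, was at 15.5, 14.3 and 15.8 CPM with BMS309403 and 22.3, 19.9 and 20.5 CPM with RANKL alone (−0.46 ± 0.07, adjusted p = 0.000594). Aspm, a spindle pole protein, was at 7.44, 6.30 and 7.22 CPM with BMS309403 and 12.1, 11.9 and 8.56 CPM with RANKL alone (−0.64 ± 0.13, adjusted p = 0.00376). Ccnb2, Cenpf, Bub1b, Prc1, Anln and Mki67 also fell, by 0.27 to 0.53 on the log2 scale. Without RANKL library 1, 11 of the 36 were called lower, and without BMS309403 library 2, 14.

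Genes of the other phases of the cell cycle had fewer calls than those of mitosis, and the difference between phases was not tested. Of 32 genes of DNA replication and nucleotide synthesis none fell and 2, Rrm1 and Cdt1, were called lower without holding (median −0.14). This list leaned lower as well, with 28 genes at a log2 change below 0 and 4 above. Of 15 G1 cyclin and inhibitor genes none was called. Cdk1 (−0.22 ± 0.09, adjusted p = 0.142) and Aurkb (−0.15 ± 0.08, adjusted p = 0.354) were not called within the mitosis list, and Cenpa had a log2 change of 0.11.

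Many mitotic genes share a promoter element, the cell cycle genes homology region, to which complexes such as DREAM bind. The Cdc20 promoter is shown as the example. The 250 bases before the start of Cdc20, chosen after its values were seen, are given 5′ to 3′ along the gene from the same annotation. Capitals mark the letters TTTGAA, searched on both strands.
Cdc20, chr4:118437344-118437593, minus strand: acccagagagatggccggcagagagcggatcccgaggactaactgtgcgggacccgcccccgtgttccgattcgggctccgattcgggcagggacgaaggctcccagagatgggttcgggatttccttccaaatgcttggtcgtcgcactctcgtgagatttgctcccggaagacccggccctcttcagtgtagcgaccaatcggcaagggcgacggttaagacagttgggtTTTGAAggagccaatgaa
The match begins 18 bases before the start. TTTGAA was in 79.4% of the 34 promoters of the mitosis list, in 12.4% of those of all genes tested and in 14.2% of those of all genes that fell, in windows of 300 bases. For the 9 mitosis genes that fell, 9 of 10 promoters held it, and in the whole list 25 of 32 matched genes did. The share among the genes that fell was not tested against that of the whole list.

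**Figure D4:**
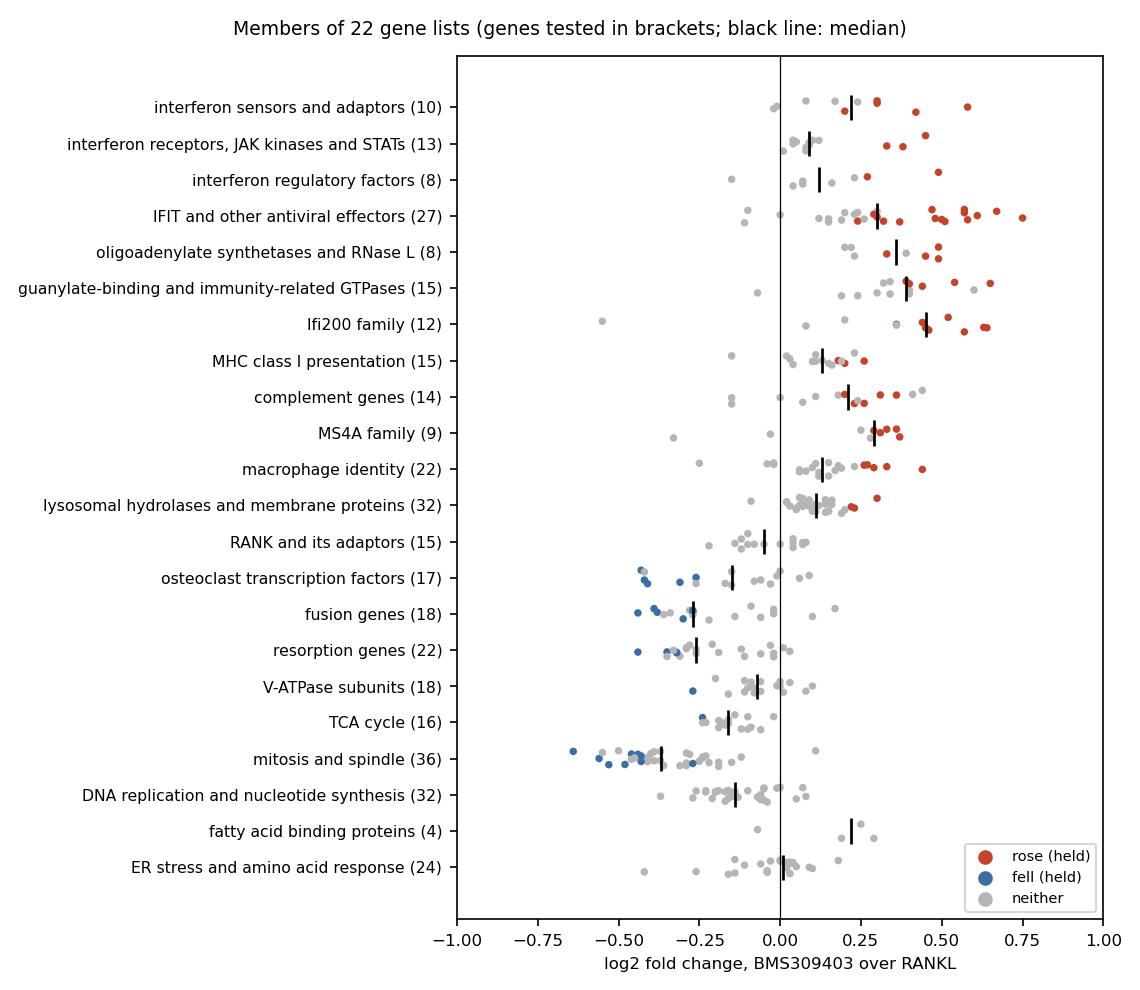
Log2 fold change of BMS309403 over RANKL alone for the tested members of 22 gene lists, 1 point per gene, with red for genes that rose and blue for genes that fell. Black lines are list medians. The interferon, complement and MS4A lists have medians to the right of 0, and the osteoclast transcription factor, fusion, resorption, TCA cycle and mitosis lists have medians from −0.37 to −0.15.

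Among mitochondrial genes, those of the TCA cycle had the lowest median. All 16 TCA cycle and pyruvate dehydrogenase genes had a log2 change below 0 (median −0.16), 1 fell and 9 were called lower without holding. Mdh2, malate dehydrogenase, had −0.24 and was not called without BMS309403 library 2 (adjusted p = 0.0545) or RANKL library 1 (0.068). Without RANKL library 1 only 1 of the 16 was called, and without BMS309403 library 2 only 2 were. Of 37 complex I genes, 24 genes of complexes II to IV and cytochrome c, and 15 ATP synthase genes, none rose or fell. Their medians were −0.03, −0.04 and −0.04, with 1, 4 and 2 genes called lower without holding.

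Lipid genes, the setting in which FABP4 works, were mostly not called, which was also so of all genes tested. Of those, 3.49% were called higher and 3.74% lower. Of 20 genes of PPAR receptors and fatty acid oxidation tested, none rose or fell and Acaa2 was called lower without holding. Of 18 genes of lipid uptake, droplets and lipolysis, none rose or fell, with Soat1 and Nceh1, which make and cleave cholesterol esters, called higher without holding. None of 24 cholesterol synthesis genes was called, and 1 of 16 fatty acid synthesis genes was called in each direction without holding. Both lists leaned slightly lower. Of the cholesterol synthesis genes, 20 had a log2 change below 0 and 4 above (median −0.07). Of the fatty acid synthesis genes, 13 lay below 0 and 3 above (median −0.08). Lpl (0.00), Plin2 (0.07), Cd36 (0.10) and Pnpla2 (−0.06) were all within a log2 change of 0.10 of 0. Of 12 LXR receptors and targets, which drive cholesterol export, Apoe and Arl4c rose and 4 more, among them Abca1, were called higher without holding (median 0.13).

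Of 22 genes of diacylglycerol lipases and eicosanoid enzymes tested, Abhd12, a hydrolase of endocannabinoids and lysophospholipids, rose. It was at 284, 281 and 276 CPM with BMS309403 and 230, 236 and 252 CPM with RANKL alone (0.23 ± 0.04, adjusted p = 0.00116). Dagla (−0.01) and Daglb (0.10) were not called. Of 16 NRF2 targets, Prdx1 and Fth1 rose, by 0.23 and 0.28, while Hmox1 (0.13) and Nqo1 (0.13) were not called. None of 24 ER stress and amino acid response genes and none of 17 glycolysis genes was called, with medians of 0.01 and −0.04.

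The 12 genes with the lowest log2 changes among those that fell and had at least 5 CPM were Krt7, Aspm, Chst11, Gstt1, Slco4a1, Cyp2s1, Cdc20, Espl1, Itga2, Plcb4, Apbb1 and Ankrd13b, at −0.67 to −0.53. Krt7, a keratin, was at 4.09, 3.68 and 3.97 CPM with BMS309403 and 6.23, 6.63 and 5.88 CPM with RANKL alone (−0.67 ± 0.12, adjusted p = 0.0017). Chst11, which sulfates chondroitin, was at 27.7, 27.3 and 30.0 CPM with BMS309403 and 51.9, 41.3 and 36.8 CPM with RANKL alone (−0.61 ± 0.09, adjusted p = 0.000462). Espl1, separase, the protease that frees sister chromatids, was at 20.9, 21.7 and 22.4 CPM with BMS309403 and 34.1, 31.8 and 29.3 CPM with RANKL alone (−0.55 ± 0.06, adjusted p = 8.75e-05). Itga2, a collagen-binding integrin chain, was at 17.8, 18.1 and 21.0 CPM with BMS309403 and 31.3, 26.5 and 24.9 CPM with RANKL alone (−0.54 ± 0.09, adjusted p = 0.000811). RANKL library 1 was the highest of the 6 for Chst11, Espl1 and Itga2, and for Krt7 RANKL library 2 was.

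The values of the other groups place these changes. Comparisons with RANKL alone, whether of BMS309403, RHC80267 or M-CSF, share the same 3 RANKL libraries, so they are given side by side only. Isg15 averaged 44.2 ± 3.55 CPM with BMS309403, 3.22 ± 0.177 CPM with RHC80267, 28.5 ± 1.71 CPM with RANKL alone and 31.1 ± 4.18 CPM with M-CSF alone. Acp5 averaged 1690 ± 73.0 CPM with BMS309403, 4140 ± 217 CPM with RHC80267 and 2140 ± 211 CPM with RANKL alone (SD, n = 3 each). The median log2 change of the antiviral list was 0.30 for BMS309403 over RANKL, −1.32 for RHC80267 over RANKL and −0.22 for RANKL over M-CSF. That of the resorption list was −0.26 for BMS309403 over RANKL, 0.60 for RHC80267 over RANKL and 1.94 for RANKL over M-CSF. That of the mitosis list was −0.37, 0.40 and −0.13 in the same order of comparisons. Other lists and genes went the same way with both inhibitors. The cholesterol synthesis list had medians of −0.07 for BMS309403 and −0.37 for RHC80267 over RANKL, and the NRF2 list had 0.10 for each. C1qa, Apoe and Slc40a1, which rose with BMS309403, were also called higher with RHC80267 than with RANKL alone, by 0.26, 0.34 and 0.70.

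The difference between the inhibitors, both at 1 µM for 2 days, was tested directly. It does not use the means of the RANKL libraries, although those libraries entered the same fit. It gave 25.5% of genes called higher with BMS309403 than with RHC80267 and 30.1% lower. Isg15 was higher with BMS309403 by 3.78 ± 0.11 on the log2 scale (adjusted p = 1.43e-16) and Irf7 by 3.34 ± 0.10 (adjusted p = 1.95e-16). Acp5 was lower with BMS309403 by −1.30 ± 0.05 (adjusted p = 2.36e-14) and Cdc20 by −0.95 ± 0.07 (adjusted p = 3.77e-10). Of the macrophage genes, Fcgr1 was higher with BMS309403 by 1.72 ± 0.05 (adjusted p = 2.14e-16), Ms4a7 by 1.17 ± 0.05 (1.75e-14) and Fcgr3 by 0.74 ± 0.04 (2.31e-12). Of the C1q chains, C1qb was higher by 0.34 ± 0.04 (adjusted p = 8.06e-07) and C1qc by 0.19 ± 0.05 (0.00322), and C1qa was not called (0.11 ± 0.05, adjusted p = 0.0624). BMS309403 with RANKL against M-CSF alone gave 29.7% of genes called higher and 27.3% lower. In that comparison, Acp5 with BMS309403 was 8.19 ± 0.09 higher on the log2 scale (adjusted p = 6.42e-25).

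**Figure D5:**
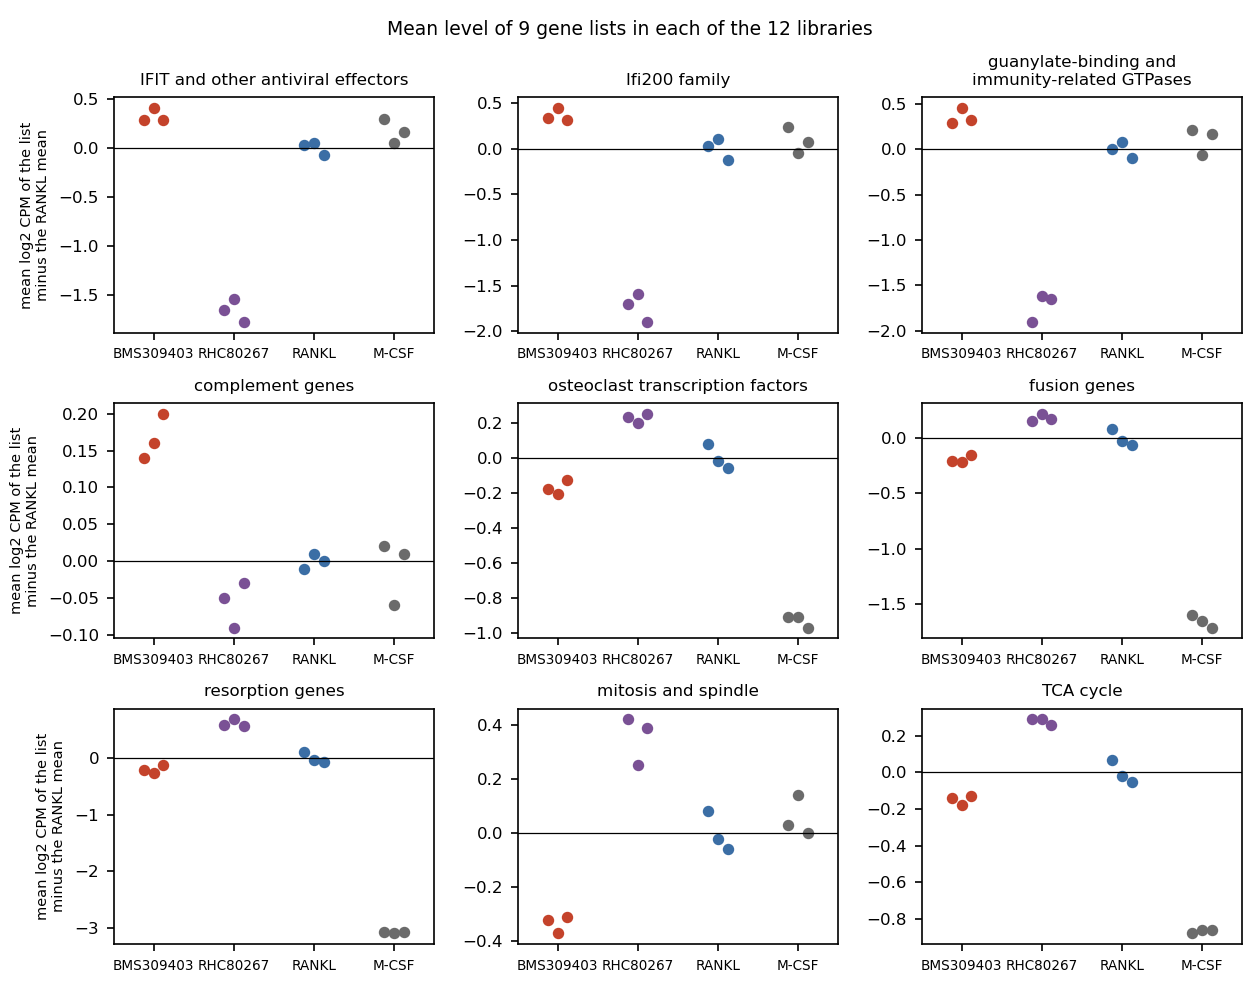
Mean log2 CPM of the tested members of 9 gene lists in each of the 12 libraries, minus the mean of the RANKL libraries, by group (replicates 1 to 3 from left to right, and each panel on its own scale). The BMS309403 libraries lie above the RANKL libraries in the 3 interferon lists and the complement list and below them in the other 5. In each of these 9 panels the RHC80267 libraries lie on the other side of 0. Some lists not shown, such as cholesterol synthesis, had medians on the same side of 0 with both inhibitors.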

How the data were processed

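RNA-seq expected counts per gene, FPKM, the authors' log2 fold change and their DESeq2 q-value came from 1 deposited gene table, per the file headers. The submitters' processing notes name Bowtie2, RSEM 1.3.1 and DESeq2 1.4.5; their roles, and the genome build, filters and use of strand, are not stated in the labels or headers. Labels give 2 days of RANKL for these groups, although the growth protocol gives a longer culture for osteoclasts.

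Expected counts of all 12 libraries, as deposited (9.49 to 9.89% of values not whole), were rounded. Genes were filtered with filterByExpr, which removed 4402 of 16570, scaled by TMM and tested with edgeR 4.0.16 (quasi-likelihood test) in R 4.3.3, and the model held the 4 groups and no covariate. The adjusted p is Benjamini-Hochberg over 12168 genes, and a gene was called below 0.05. CPM was computed from the counts and TMM factors, and FPKM was used only to compare Fabp genes per length. The biological coefficient of variation was 0.0371, with 8 residual degrees of freedom. The procedure was tested on simulated data with the same spread for every gene and no library made to stand apart. That simulation therefore does not bear on calls that depend on single libraries.

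The genes and 45 lists (774 genes, 735 tested) were chosen with earlier results of these data known. Genes named are 12 fixed genes, the 12 highest and 12 lowest log2 changes among genes that rose or fell with at least 5 CPM, up to 5 members of each list by smallest p, and all members of lists of up to 9 genes; others named, such as list members that were not called, were chosen after their values were seen. Of 248 genes named by the rule, 64 of the 195 with a position overlap another RefSeq gene, and reads of overlapping genes may not be separable. Alternatives were DESeq2 1.42.0, limma-voom (limma 3.58.1), other scaling, filters, samples and a replicate block, and each library left out. Promoters came from RefSeq GRCm38.p6. The values of some genes counted in the lists are not reported here.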

Additional observations from a re-analysis of the deposited data

How the results depend on the processing

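Leaving out 1 library changed the counts most. Genes called higher ranged from 152 to 473 and genes called lower from 111 to 538, with both lowest counts without RANKL library 1 and both highest without RANKL library 3. Called entries of the gene lists ranged from 108 to 220, against 216 with all libraries, and called named genes from 100 to 161, against 160. The lower ends came without RANKL library 1, and without BMS309403 library 2 these counts were 113 and 102. A fit with a library fewer has less power by construction, but the cause of the difference between libraries was not tested. Under DESeq2, limma-voom, RLE size factors, either filter, or only the 6 libraries, counts of genes called stayed within 1.5 times (411 to 515 higher, 348 to 457 lower), and no named gene or list count reversed. Genes that rose numbered 131 to 195 and genes that fell 96 to 124 under these settings, and 198 to 232 of the 232 were shared. Calls higher made up 48.3% of all calls, and at most 54.2% (DESeq2). Same-numbered BMS309403 and RANKL libraries did not deviate together (r = −0.0405, 0.0123 and −0.0617). With 3 libraries per group this cannot exclude a shared animal or batch, and the labels do not say what the numbers mark. With the replicate block, 437 genes were called higher and 422 lower, 214 list entries and 160 named genes were called, and 105 genes rose and 77 fell, of which 171 were shared with the 232. The median level of called genes was 78 CPM, beside 28 CPM for all genes tested, and the part of depth in this was not tested.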

Other observations

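Of the 232 genes that rose or fell, 132 belonged to none of the lists, and the following were picked from them after their values were seen. Values are mean ± SD with n = 3 in each group, and none of these genes overlapped between the groups. Among genes of iron, heme and selenium handling, Slc40a1, the iron exporter ferroportin, averaged 253 ± 18.8 CPM with BMS309403 and 195 ± 15.5 CPM with RANKL alone (log2 difference 0.38). Trf, the iron carrier transferrin, averaged 482 ± 21.5 CPM with BMS309403 and 376 ± 25.9 CPM with RANKL alone (0.36). Blvrb, a biliverdin reductase, averaged 189 ± 4.22 CPM with BMS309403 and 154 ± 4.59 CPM with RANKL alone (0.30). Selenop, the selenium carrier, averaged 4060 ± 131 CPM with BMS309403 and 3040 ± 355 CPM with RANKL alone (0.42). The nucleotide receptor genes P2rx4 and P2ry6 rose by 0.25 and 0.22, and Entpd1, whose product breaks down extracellular ATP, rose by 0.32.

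Of genes that fell, Myo1e, a membrane-bound myosin, averaged 177 ± 8.02 CPM with BMS309403 and 220 ± 21.0 CPM with RANKL alone (−0.32). Srgap3, a regulator of Rac, averaged 38.2 ± 1.74 CPM with BMS309403 and 54.3 ± 6.33 CPM with RANKL alone (−0.51). Dnmt3a, a DNA methyltransferase, averaged 252 ± 8.62 CPM with BMS309403 and 302 ± 12.8 CPM with RANKL alone (−0.26), and Nrp2, a semaphorin co-receptor, averaged 564 ± 27.4 CPM with BMS309403 and 673 ± 54.7 CPM with RANKL alone (−0.26).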
